A study of Mus musculus with 6 samples.

Results

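Hopx and Hopxos, a protein-coding gene and the gene annotated on its opposite strand, were described in bulk RNA sequencing of bone marrow CD8 cells. They were found by symbol, and they are 2 of the 54532 genes of the table. They were chosen by the measured fold change of Hopxos, whose drop was among the largest in the comparison of treated with untreated mice, and Hopx is its partner on the opposite strand. The values of both in that comparison are therefore given as a description, with no test. All 6 libraries came from 2- to 5-month-old female CByB6F1 mice, a first-generation cross, in which immune bone marrow failure had been set up, a model in which T cells destroy the blood-forming marrow. The mice behind 3 libraries had been given ruxolitinib, a drug that blocks JAK1 and JAK2 kinases (pools 1, 2 and 3), and those behind the 3 control libraries had the same disease and no ruxolitinib (pools 4, 5 and 6). Each library is a pool of cells from 2 to 3 mice, taken from marrow with CD8 magnetic beads, and p-values measure the spread between these pools. For the way the disease was induced, the dose, the length of treatment and the day of sampling, values were not given in the sources used here.

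HOPX is a small atypical homeodomain protein that does not bind DNA itself. It works by binding other proteins, among them serum response factor (SRF) and histone deacetylases, and was first studied in the heart, where it restrains SRF target genes. In T cells Hopx is known as a gene switched on in effector and effector memory cells downstream of the transcription factor T-bet, and as a restraint on AP-1 factors in induced regulatory T cells. Natural killer cells and blood stem cells also express it. Hopxos is a long noncoding RNA gene, and no function of it is taken as known here.

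Both genes lie on chromosome 5 of the mm10 assembly and share exon sequence. Hopx spans 77086988 to 77115121 on the minus strand and has 3 transcripts in GENCODE M21, and Hopxos spans 77094532 to 77102303 on the plus strand with 1 transcript. A Hopx block of 412 bases, 77094866 to 77095277, lies wholly inside the first exon of Hopxos. That block holds the start exons of the 2 short Hopx transcripts and the first coding exon of all 3. It makes up 27.2% of the 1516 exon bases of Hopx and 24.8% of the 1661 exon bases of Hopxos, which leaves 1104 and 1249 bases that belong to 1 gene alone. Of the 219 coding bases of Hopx, stop codon left out, 144 (65.8%) are inside the Hopxos exon. A read wholly inside them lies in an exon of both genes, and its position alone, without the strand of the RNA, does not assign it. They are shown for this reason (GENCODE M21, chr5:77094866-77095009, minus strand, start codon in capitals).
Hopx coding exon inside Hopxos: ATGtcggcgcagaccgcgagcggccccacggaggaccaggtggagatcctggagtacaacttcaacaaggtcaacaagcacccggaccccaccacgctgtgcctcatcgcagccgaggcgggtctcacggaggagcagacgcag
The exon parts that belong to Hopxos alone all lie in introns of the long Hopx transcript. Unspliced RNA of the long Hopx transcript would carry the same letters on the other strand. With the strand setting of the authors' counting and its handling of reads in more than 1 gene not given in the sources used here, reads of Hopx and Hopxos cannot be told apart with certainty in any value below. RefSeq places the start of Hopxos at 77098830, 4298 bases beyond the GENCODE start and 3553 bases beyond the last shared base. In RefSeq the spans of the genes overlap, but the Hopxos span lies outside the block shared in GENCODE. RefSeq exons were not compared.

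**Figure D1:**
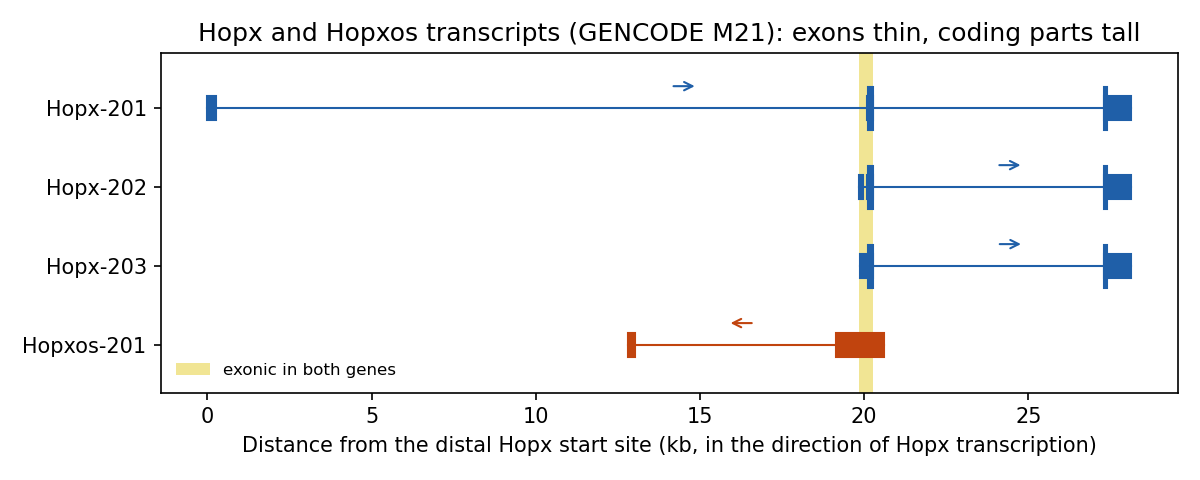
Transcripts of Hopx (blue) and Hopxos (orange) drawn to scale by distance in kb from the distal Hopx start, in the direction in which Hopx is read; lines are introns, low boxes exons, tall boxes coding parts and arrows the direction of transcription. The yellow band, 412 bases wide, is exonic in both genes and contains the first coding exon of every Hopx transcript.

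The RefSeq promoter table (GRCm38.p6) held 2 windows for Hopx and 1 for Hopxos, and the bases before each start are shown because both genes had lower counts in the same libraries. Capitals mark the motifs searched.
Hopx distal promoter (chr5:77115124-77115373, minus strand): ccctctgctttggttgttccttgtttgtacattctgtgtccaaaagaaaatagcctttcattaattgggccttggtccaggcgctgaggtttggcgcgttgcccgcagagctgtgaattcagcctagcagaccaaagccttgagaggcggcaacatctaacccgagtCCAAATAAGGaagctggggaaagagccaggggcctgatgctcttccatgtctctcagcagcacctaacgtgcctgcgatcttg
Hopx internal promoter (chr5:77095278-77095517, minus strand): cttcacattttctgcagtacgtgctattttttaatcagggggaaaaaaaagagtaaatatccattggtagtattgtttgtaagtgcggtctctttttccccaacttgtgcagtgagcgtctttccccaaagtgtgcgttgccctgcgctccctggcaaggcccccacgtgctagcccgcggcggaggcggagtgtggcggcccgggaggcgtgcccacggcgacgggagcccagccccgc
Hopxos promoter (chr5:77098580-77098829, plus strand): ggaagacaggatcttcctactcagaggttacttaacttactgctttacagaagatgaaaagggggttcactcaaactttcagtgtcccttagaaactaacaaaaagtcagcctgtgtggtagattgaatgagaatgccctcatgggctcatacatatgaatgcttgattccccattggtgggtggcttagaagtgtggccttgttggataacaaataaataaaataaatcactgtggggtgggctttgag
The search used the whole 300-base windows on both strands. The distal Hopx window holds 1 CArG box, the element bound by SRF, 83 bases before the start, in capitals. A CArG box is present in 1.63% of all 32851 windows of that length. None of the 3 windows holds the interferon elements TTCNNNGAA (8.30% of windows) or the ISRE core (3.44%), the T-box core GGTGTGA (3.98%) or the AP-1 site TGANTCA (7.81%), and these motifs did not overlap the CArG box. The internal Hopx window, which lies inside the GENCODE Hopxos exon, has 17 CpG pairs in 240 bases and the distal window 8 in 250 bases, against a median of 6 in 250 bases over all windows. The Hopxos window has none and sits in the intron of the GENCODE Hopxos model.

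The unit of level is CPM: a gene's count per 1000000 counts of its library in the tested genes, after edgeR's TMM factor. Libraries held 13829808 to 14139605 counts with ruxolitinib and 15740514 to 17708196 in controls, so 1 count was worth 0.0554 to 0.0760 CPM. Haemoglobin and other erythroid transcripts were far higher in the ruxolitinib libraries: the 14 erythroid markers summed to 125329 to 245551 CPM there and to 1870 to 2696 CPM in controls. The 17 CD8 T cell markers summed to 1914 to 5430 CPM with ruxolitinib and to 10651 to 12910 CPM in controls. They are Cd8a, Cd8b1 and general T cell genes such as Cd3e, Thy1 and Lck, which are not particular to CD8 cells. T cell markers were thus present in all 6 libraries, at a lower level in the treated ones. Levels in CPM are relative to the other RNA of the library. Fewer CD8 T cells, less RNA per cell and more RNA of other cells thus cannot be told apart in bulk libraries.

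Hopx was clearly expressed in the control libraries and lower in every ruxolitinib library. It had 1014, 1335 and 1879 counts in control pools 4, 5 and 6, or 56.2, 87.3 and 117 CPM. With ruxolitinib it had 124, 151 and 308 counts in pools 1, 2 and 3, or 9.07, 11.5 and 19.5 CPM. The groups did not overlap: the lowest control was 2.88 times the highest treated pool. The means were 86.8 ± 30.5 CPM in controls and 13.3 ± 5.44 CPM with ruxolitinib (SD, n = 3 each), a log2 fold change of -2.70 ± 0.36 (SE, edgeR fit over all genes tested). Within each group the highest pool was about as far above the lowest in both groups, 2.08 times in controls and 2.15 times with ruxolitinib. By size of drop Hopx ranked 187 of the 13480 genes tested, and among those genes every ruxolitinib library was below every control library for 30.3%.

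Hopxos was a low-count gene in controls and nearly uncounted with ruxolitinib. Control pools 4, 5 and 6 had 35, 75 and 165 counts, or 1.94, 4.91 and 10.3 CPM. Ruxolitinib pools 1, 2 and 3 had 2, 2 and 3 counts, or 0.146, 0.152 and 0.190 CPM. The exact 95% counting intervals of the treated pools reached up to 0.529, 0.549 and 0.554 CPM, below the 1.35 CPM at the lower end of control pool 4. These intervals hold no error but that of counting independent reads, and are too narrow where several reads stem from 1 molecule. Control pool 6 was 5.30 times control pool 4, with intervals that do not touch (8.77 to 11.97 CPM against 1.35 to 2.70 CPM). The controls thus differed by more than the error of counting independent reads. The means were 5.71 ± 4.23 CPM and 0.163 ± 0.0235 CPM (SD, n = 3 each), with a log2 fold change of -5.05 ± 0.74, and -4.32 without control pool 6. Hopxos passed the low-count filter through the controls alone. By drop it ranked 6 among the 3067 genes called lower with at least 5 CPM in controls. This rank is a description, since Hopxos was chosen for its drop. Just above it were Mt3, a metallothionein gene (-5.22), and Ifit1, an interferon-stimulated gene (-5.39). Just below it were Cdkn2a, which encodes cell cycle inhibitors (-4.75), and Rtp4 (-4.71).

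**Figure D2:**
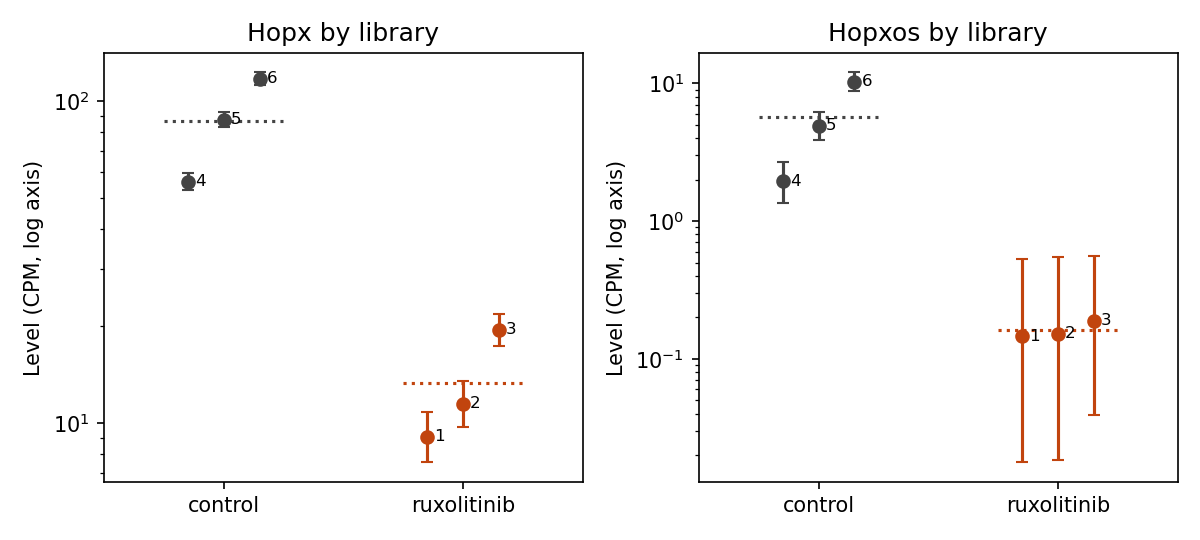
Level in CPM (log axes) of Hopx and Hopxos in each library, labelled by pool number, with exact 95% counting intervals and dotted lines at the group means. The controls sit at 56.2 to 117 CPM for Hopx and 1.94 to 10.3 CPM for Hopxos, above all treated pools, which lie at 9.07 to 19.5 and 0.146 to 0.190 CPM.

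Taken as 1 feature, which needs no assignment of reads to a strand, the locus had 1049, 1410 and 2044 counts in control pools 4, 5 and 6. It had 126, 153 and 311 in ruxolitinib pools 1, 2 and 3. The summed level was 92.6 ± 34.6 CPM in controls and 13.5 ± 5.46 CPM with ruxolitinib (SD, n = 3 each), a log2 fold change of -2.77 ± 0.37. This is close to the value of Hopx alone, since Hopx held most of the counts. A read moved between the genes by the counting rule does not alter this sum, whereas reads dropped because they lie in both would be missing from it.

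Hopxos made up a smaller share of the locus counts with ruxolitinib. Hopxos was chosen for its drop in this same comparison, which favours a lower share, so the shares are a description. The share was 3.34% in control pool 4 (exact Clopper-Pearson 95% interval 2.33 to 4.61), 5.32% in pool 5 (4.21 to 6.62) and 8.07% in pool 6 (6.93 to 9.34). In ruxolitinib pools 1, 2 and 3 it was 1.59% (0.193 to 5.62), 1.31% (0.159 to 4.64) and 0.965% (0.199 to 2.79). The groups did not overlap, but the intervals of treated pools 1 and 2 include the share of control pool 4, so a difference between those single libraries was not detectable at this depth. Summed over the 3 pools, Hopxos had 275 of 4503 counts in controls (6.11%) and 7 of 590 with ruxolitinib (1.19%). Per kb of exon, the scale on which levels of different genes can be compared, controls had 37.0, 57.6 and 77.2 CPM per kb of Hopx and 1.17, 2.95 and 6.19 of Hopxos in pools 4, 5 and 6. On that scale the share was 5.12 ± 2.19% in controls and 1.18 ± 0.285% with ruxolitinib. The 2 genes did not keep a constant ratio among the controls either: 1 Hopxos count went with 29.0, 17.8 and 11.4 Hopx counts in pools 4, 5 and 6.

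**Figure D3:**
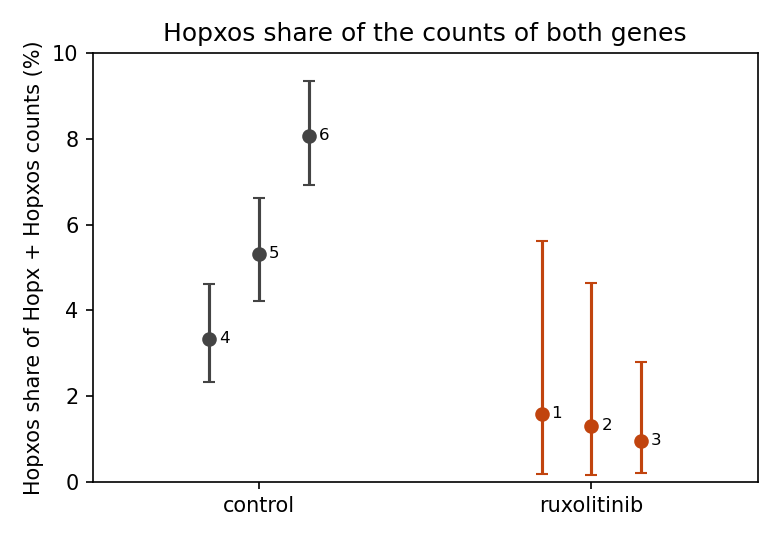
Hopxos counts as a percentage of Hopx plus Hopxos counts in each library, labelled by pool, with exact Clopper-Pearson 95% intervals; the axis starts at 0. Control pools lie at 3.34% to 8.07% and ruxolitinib pools at 0.965% to 1.59%, with wide intervals where only 2 or 3 Hopxos reads were counted.

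Much of the lower Hopx level went together with a lower level of the CD8 T cell markers. Their geometric mean was 561, 549 and 434 CPM in control pools 4, 5 and 6 and 97.9, 117 and 266 CPM in ruxolitinib pools 1, 2 and 3. The CD8 alpha chain gene Cd8a fell by 1.72 ± 0.39 on the log2 scale (adjusted p = 0.00441, edgeR), and by 2.35 without ruxolitinib pool 3. Set against that geometric mean, Hopx stood at 10.01%, 15.9% and 27.0% in control pools 4, 5 and 6. It stood at 9.27%, 9.78% and 7.32% in ruxolitinib pools 1, 2 and 3. Pool 4 was thus only 1.02 times the highest treated pool, while pool 6, with the lowest markers of the controls, had the highest Hopx. The ratio averaged 17.6 ± 8.61% in controls and 8.79 ± 1.30% with ruxolitinib (SD, n = 3 each), 2.00 times higher in controls where the CPM differed 6.51 times. With the T cell surface gene Thy1 alone as denominator the groups overlapped (3.87% to 9.10% in controls, 3.18% to 4.29% treated). With the CD3 chain gene Cd3e alone they did not, by a margin of 1.038 times.

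Hopxos, which was chosen for its drop, kept a wider gap on this scale. It stood at 0.345%, 0.893% and 2.37% of the marker mean in control pools 4, 5 and 6 and at 0.150%, 0.130% and 0.0713% in ruxolitinib pools 1, 2 and 3. The lowest control was 2.31 times the highest treated pool. With libraries scaled to the marker mean in the edgeR fit, the log2 fold change was -1.01 ± 0.57 for Hopx, -3.46 ± 0.95 for Hopxos and -1.08 ± 0.57 for the sum. Under it the median gene stood at 1.96, so both genes lay below the median gene by more than their own value shows.

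**Figure D4:**
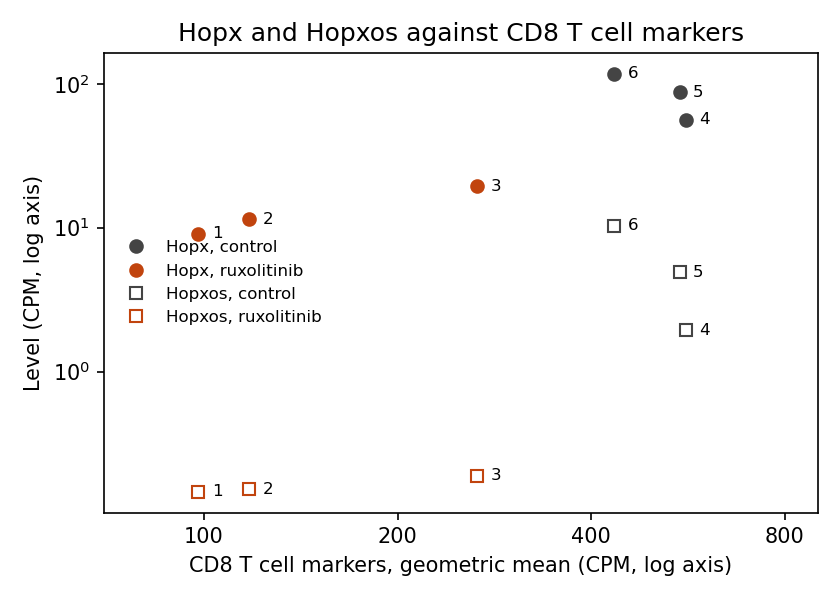
Hopx (filled circles) and Hopxos (open squares) in CPM against the geometric mean of 17 CD8 T cell markers in CPM, both axes log, 1 point per gene and library, labelled by pool. Among the ruxolitinib pools the one with the highest markers (pool 3, 266 CPM) has the most Hopx, and among the controls the one with the lowest markers (pool 6, 434 CPM) has the most of both genes.

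Most markers of other marrow cells were higher with ruxolitinib, those of natural killer cells being split, where 29.9% of all tested genes were called higher and 25.3% lower. The 12 stem and progenitor markers summed to 18.1 to 25.2 CPM in controls and to 170 to 339 CPM with ruxolitinib, with 7 of 10 tested called higher, none lower and Flt3 at 0 in all controls. The treated sum was mostly Lmo2, at 10.3 ± 2.80 CPM in controls and 200 ± 82.5 CPM with ruxolitinib. Hlf (1.92 and 1.93 CPM) and Procr (1.22 and 1.10 CPM) did not rise. Of the 9 natural killer cell markers 4 were tested, 2 were called higher and 2 lower, and the summed level was 119 to 167 CPM in controls and 423 to 699 CPM with ruxolitinib. The sum was mostly Tyrobp and Fcer1g, which myeloid cells share. The defining natural killer receptor gene Ncr1 had 4, 0 and 0 counts in control pools 4, 5 and 6 and Klra4 had none, whereas the 2 called lower were Klre1, at 34.0 ± 20.4 CPM in controls and 3.15 ± 1.71 CPM with ruxolitinib, and Klra7, at 0.938 ± 0.322 and 0.0497 ± 0.0431 CPM. The markers of stroma and endothelium (10 of 11 tested called higher), monocytes and macrophages (15 of 16 higher, 1 lower), B cells (9 of 10 higher) and granulocytes (9 of 12 higher, 1 lower) were mostly higher with ruxolitinib too. Their summed levels were 141 to 291, 1270 to 1626, 204 to 262 and 1567 to 6041 CPM in controls. With ruxolitinib they were 906 to 1425, 9143 to 15037, 1055 to 1614 and 8842 to 20555 CPM. Pdgfra, of stroma, and the B cell genes Ms4a1, Pax5 and Spib were at 0 in all controls. The part of these cells in the Hopx and Hopxos values was not tested.

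A list of 16 possible inputs to Hopx in T cells was drawn up, called upstream genes below. Whether each acts on Hopx was not tested. Of the 16, 9 fell and 4 rose, and 3 did not pass (edgeR, adjusted p under 0.05, median log2 fold change -0.99). Over all genes tested 25.3% were called lower and 29.9% higher, with a median of 0.03. Tbx21, which encodes T-bet, had 104, 114 and 36.6 CPM in control pools 4, 5 and 6 and 10.6, 13.6 and 39.3 CPM in ruxolitinib pools 1, 2 and 3. The groups thus overlapped, and control pool 6, the one with the most Hopx, had the least Tbx21 of the controls. Its log2 fold change was -2.002 ± 0.54 (adjusted p = 0.0111). Leaving out ruxolitinib pool 1 or pool 2 lost the call (adjusted p = 0.0592 and 0.0522), as did no filter (0.119), and leaving out ruxolitinib pool 3 gave -2.82. Stat4, the signal carrier of interleukin 12, fell from 97.3 ± 24.95 CPM to 22.0 ± 10.3 CPM (-2.14 ± 0.34, adjusted p = 0.000667). Ifng, which encodes interferon gamma, fell as well (-2.29 ± 0.30). Tgfbr1, a receptor chain for TGF-beta, rose from 8.51 to 31.5 CPM (1.89 ± 0.29). Eomes, the T-box relative of T-bet, was at 122 CPM in controls and 106 CPM with ruxolitinib (-0.21 ± 0.33, adjusted p = 0.608), and at -0.71 without ruxolitinib pool 3 (adjusted p = 0.0412). With libraries scaled to the CD8 markers, none of the 16 was called lower, against 0.564% of all genes called lower and 69.9% called higher under that scaling.

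Among 23 genes for partners of HOPX and for AP-1 and other factors it is known to restrain or meet, 8 fell, 6 rose and 9 did not pass (median 0.11), where 25.3% of all genes were called lower and 29.9% higher. Srf, the best-known partner, fell by 1.08 ± 0.20 on the log2 scale (122 ± 8.35 CPM in controls, 57.8 ± 10.1 CPM treated, adjusted p = 0.00157) and was at 0.77 with CD8 marker scaling. Hdac2, the deacetylase partner in the heart, was at 58.2 ± 10.1 CPM and 40.9 ± 3.27 CPM (-0.51 ± 0.20, adjusted p = 0.0544), and at 1.38 with that scaling. Its relative Hdac1 fell (-1.65 ± 0.27), and turned to 0.17 with that scaling. The chromatin gene Rbbp4, the most abundant of those that did not pass, was at -0.20 ± 0.20. The AP-1 genes were split: Fos, at 128 ± 6.67 CPM in controls and 331 ± 64.8 CPM with ruxolitinib, rose (1.37 ± 0.22, adjusted p = 0.000714), as did Fosl2 from 12.6 to 46.3 CPM (1.88 ± 0.27), whereas Jund fell (-1.67 ± 0.28, and 0.16 with CD8 marker scaling). Every ruxolitinib library was above every control for Fos, which held for 35.7% of all genes. Of 20 tested SRF target genes, 10 fell and 5 rose (median -0.54), beside 25.3% and 29.9% of all genes, and 6 fell without ruxolitinib pool 1. Coro1a, an actin regulator of leukocytes (-2.41 ± 0.32), and the calponin gene Cnn2 (-1.48 ± 0.28, 0.32 with CD8 marker scaling) fell. Vcl, which encodes vinculin (6.16 ± 0.57, and 7.13 without control pool 4), and the smooth muscle actin gene Acta2 (2.73 ± 0.51) rose from 0.308 and 0.541 CPM, and Flna, a filamin gene, was at 0.20 ± 0.26.

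Effector genes that are expressed with Hopx in CD8 T cells were mostly lower. Of 22 tested, 14 fell and 2 rose, the other 6 did not pass, and the median was -1.72 on the log2 scale, beside 25.3% of all genes called lower and 29.9% higher. Gzma, which encodes granzyme A, went from 71.8, 104 and 161 CPM in control pools 4, 5 and 6 to 1.39, 1.90 and 3.67 CPM in ruxolitinib pools 1, 2 and 3 (-5.58 ± 0.45). In the controls pool 6 was the highest for Gzma as for Hopx, but the effector genes were split in this. Klrd1 and Ccl4 were also highest in control pool 6, whereas Gzmk, Prf1 and Ccl5 were lowest there. Gzmb, granzyme B, fell from 508 ± 72.1 CPM to 57.1 ± 36.7 CPM (-3.15 ± 0.42, and -3.82 without ruxolitinib pool 3), and the activating receptor gene Klrk1 fell by 2.08 ± 0.28 on the log2 scale. Zeb2, a T-bet partner gene that myeloid cells also use, rose (2.60 ± 0.29), and Bhlhe40 was at -0.64 ± 0.28 (adjusted p = 0.0746). Bhlhe40 passed without ruxolitinib pool 3 (adjusted p = 0.00556), with limma-voom (0.0441) and with no filter (0.0427). With CD8 marker scaling Gzma and Gzmb were the 2 of the 22 called lower. Of 14 naive and memory genes, 6 rose and 2 fell (median 0.17), beside 29.9% and 25.3% of all genes. Il6ra (3.23 ± 0.36) and the homing receptor gene Ccr7 (2.39 ± 0.35) rose, the transcription factor gene Lef1 (-2.04 ± 0.30) and the survival gene Bcl2 (-1.88 ± 0.24) fell, and Klf2 was at -0.50 ± 0.21. Klf2 passed with DESeq2 (adjusted p = 0.0473) and without control pool 6 (0.0388). Il6ra is also a gene of myeloid cells and Ccr7 of B cells and dendritic cells.

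The genes most like Hopx over the 6 libraries were found by the root mean square difference of log2 CPM, each gene centred on its own mean, among 9592 protein-coding genes with at least 5 CPM on average. They were Nmb, a neuropeptide gene (0.145), Rps13 and Rpl29, ribosomal protein genes (0.149 and 0.163), Hcst, which encodes the adaptor DAP10 of natural killer and T cell receptors (0.170), and Flt3l, a cytokine gene (0.185). Nmb had 26.4, 32.6 and 44.2 CPM in control pools 4, 5 and 6 and 3.95, 4.64 and 9.35 CPM in ruxolitinib pools 1, 2 and 3. The genes nearest to Hopxos were less close to it: Gm45716 (0.529), Ptpn18, a phosphatase gene (0.548), Plac8 (0.673), Jakmip1 (0.673) and Psmb10, an immunoproteasome subunit gene (0.689), while Hopx lay at 0.801 from Hopxos. Gm45716 and Ptpn18 shared with Hopxos a high control pool 6: Ptpn18 had 217, 259 and 634 CPM in control pools 4, 5 and 6. Without that pool their log2 fold changes went from -3.67 to -2.89 and from -3.36 to -2.74. The nearest genes depend on the measure: by Pearson correlation in its place, none of the 5 genes was shared for either gene, and with a prior count of 0.5 in place of 2 the shared genes were 5 for Hopx and 2 for Hopxos. With 0.5 the 5 nearest to Hopxos were Ifit1, Gm45716, Gzma, Rtp4 and Ptpn18. Hopxos had only 2 or 3 counts in each treated pool, so its distances depend on the prior count.

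Around the locus Hopx and Hopxos were the only genes with more than 5 counts over a long stretch. Of 27 other genes within 500 kb, 16 had a count and 11 were tested. The nearest tested genes were Srp72, a signal recognition particle gene 87051 bases away on the side of lower coordinates, and Rest, a repressor gene 150370 bases away on the other side. Between them Arl9, Thegl, Chaer1 and Spink2 had 3, 5, 3 and 3 counts over all libraries, and these genes were named after their counts were seen. Of the 11 tested, 3 fell and 4 rose (median 0.48), against 25.3% and 29.9% of all genes. The purine synthesis genes Ppat (-1.24 ± 0.22, adjusted p = 0.00126) and Paics (-0.59 ± 0.18) and the mitochondrial gene Noa1 (-0.86 ± 0.23) fell. Srp72 (0.54 ± 0.19) and Igfbp7 (1.36 ± 0.40) rose, as did the uncharacterised genes C530008M17Rik, with 11 counts in controls and 819 with ruxolitinib, and A730089K16Rik, with 2 and 324. Rest was at 0.06 ± 0.22. Ppat, Paics and Noa1 turned positive with CD8 marker scaling. Leaving out 1 pool lost 4 of these calls: the largest adjusted p was then 0.0828 for Paics (without ruxolitinib pool 1), 0.102 for Srp72 (ruxolitinib pool 1), 0.0581 for Noa1 (ruxolitinib pool 1) and 0.0606 for Igfbp7 (ruxolitinib pool 3). Their log2 fold changes kept their direction, at -0.64 to -0.53 for Paics and 0.44 to 0.64 for Srp72. They were -0.95 to -0.67 for Noa1 and 1.02 to 1.80 for Igfbp7. The call was also lost for Paics without control pool 4 or 5 (adjusted p = 0.0685 and 0.0741), for Noa1 without control pool 4 (0.0543) and for Igfbp7 without ruxolitinib pool 2 (0.0556). For Srp72 it was also lost without ruxolitinib pool 2 or 3 (0.0595 and 0.0552), without control pool 5 or 6 (0.101 and 0.0511), and with no filter (0.0993).

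Hopxos was set beside the other genes of the table named as the opposite strand of a host gene on the same chromosome. They were taken by name whatever their biotype, so the set is not limited to noncoding genes. They are called antisense genes here, although the spans of some pairs, such as Brip1os and Brip1, do not overlap. Of 298 such entries, which hold the pairs of Tmem147os, Dlx6os1 and Nkx2-2os repeated, 132 had antisense counts. In 28 pairs both genes were tested, 18 of them with shared exon bases. Antisense and host gene differed in the same direction in 17 of the 28, and the antisense gene had the lower fold change in 18 (median difference -0.59 log2). The difference for Hopxos and Hopx was -2.35, and 3 pairs had a more negative one. By fold change Hopxos was the lowest antisense gene of the 28, in part because it was chosen for that. The pairs with the most antisense counts were Wdr83os and Wdr83 (-2.26 ± 0.32 and -0.86 ± 0.24), Brip1os and Brip1 (0.00 ± 0.24 and -0.60 ± 0.25) and Gimap1os and Gimap1 (-2.71 ± 0.32 and -2.09 ± 0.34). With CD8 marker scaling Wdr83 and Brip1 were at 1.06 and 1.33. All genes of the antisense biotype together took 0.0563% to 0.0618% of the counts in controls and 0.0636% to 0.0654% with ruxolitinib, while Hopxos took 0.351%, 0.770% and 1.68% of those antisense counts in control pools 4, 5 and 6 and 0.0222%, 0.0224% and 0.0328% in ruxolitinib pools 1, 2 and 3.

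**Figure D5:**
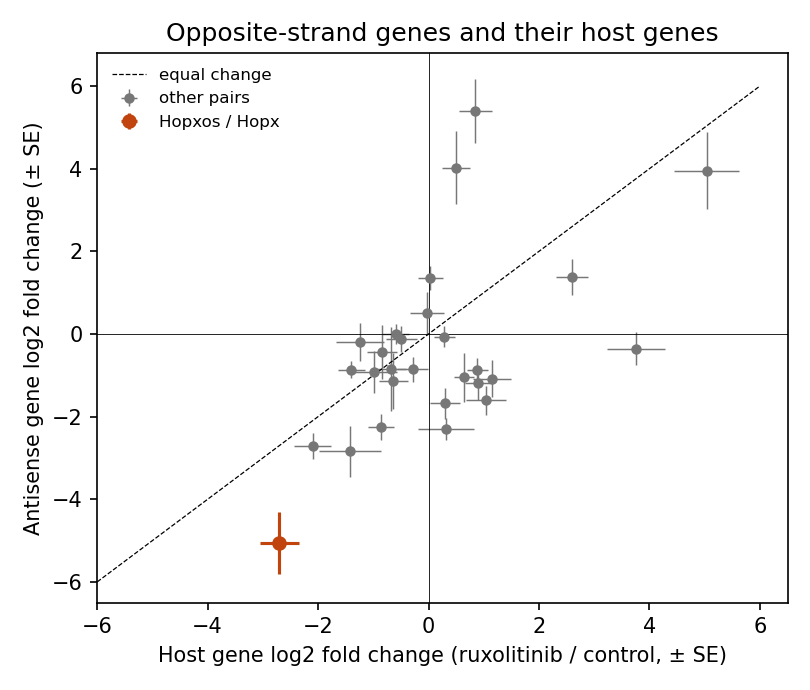
Log2 fold change (ruxolitinib over control, ± SE) of 28 opposite-strand genes against that of their host genes; the dashed line marks equal change. Hopxos and Hopx (orange) lie lowest, at -5.05 and -2.70, under the line of equal change, as do 18 of the 28 pairs in all.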

How the data were processed

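Counts of RNA sequencing reads per gene were taken as deposited by the authors: raw counts, not normalised, as whole numbers. Per the submitters' processing notes, HISAT2 2.0.5 and mm10 were used; for the counting program, strand setting and annotation, nothing was given in the sources used here. Per the labels' protocols, libraries were made with NEBNext Ultra II. Of the 54532 genes, 54409 are in GENCODE M21 (GRCm38), 98.3% of those with the same coordinates and 98.0% with the deposited length equal to the merged exons. Counts were fitted with edgeR 4.0.16 in R 4.3.3 (filterByExpr, TMM, glmQLFit robust, glmQLFTest, 1 term for group) and p-values were adjusted by Benjamini-Hochberg, with a call under 0.05, over the 13480 genes kept. The SE was the log2 fold change divided by the square root of F. The precision of a value is limited by its counts, given beside it. Intervals for counts are exact Poisson and those for shares Clopper-Pearson, both 95%, from scipy 1.17.1.

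The genes, lists and tests were chosen with earlier results of these data known. Named genes were Hopx, Hopxos, Tbx21, Srf, Hdac2 and Cd8a, at most 4 called genes by smallest p and the most abundant uncalled member per list, the 2 nearest tested and all called genes within 500 kb, the 5 genes most like each member, the 3 richest antisense pairs, and genes ranked beside Hopxos. Alternatives were RLE factors, total counts, CD8 marker scaling, no filter, 1 CPM in 3 libraries, DESeq2 1.42.0, limma-voom (limma 3.58.1), leaving out each pool, other denominators, per-kb shares and, added after the data were seen, shares per kb of exon held by 1 gene only. The edgeR script was tested on simulated counts with the same spread set for all genes. It called 11 of 96 genes changed 2-fold, 90 of 96 changed 4-fold, and 2 unchanged genes. A gene that did not pass is thus not shown to be unchanged. Some genes that the rule names are not reported here.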

Additional observations from a re-analysis of the deposited data

How the results depend on the processing

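Fold changes of Hopx, Hopxos and their sum kept their direction under every alternative and moved by less than the spread between pools, except under CD8 marker scaling (-1.01, -3.46 and -1.08). With 1 pool left out they ranged from -3.08 to -2.43 for Hopx, from -5.46 to -4.32 for Hopxos and from -3.15 to -2.48 for the sum. The share difference (control minus ruxolitinib) was 4.29 percentage points, 3.04 to 5.41 with 1 pool left out, 3.94 per kb and 3.83 per kb of exon held by 1 gene only. Hopx per CD8 marker mean had a log2 ratio of -0.90, from -1.25 to -0.53 with 1 pool left out. The median difference of antisense and host genes was -0.59, and -0.92 where both had at least 1 CPM.

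CD8 marker scaling called 0.564% of all genes lower and 69.9% higher. Under it the genes within 500 kb counted 0 lower and 8 higher, the upstream genes 0 lower and 6 higher, the partner list 0 lower and 15 higher, the SRF targets 0 lower and 11 higher, the effector genes 2 lower and 5 higher, and the naive and memory genes 0 lower and 11 higher. DESeq2 called 4 naive and memory genes lower where edgeR called 2. With 1 pool left out, lower and higher calls ranged from 1 to 3 and 2 to 4 (within 500 kb), 6 to 11 and 3 to 4 (upstream genes), 6 to 8 and 5 to 8 (partners), 6 to 10 and 4 to 5 (SRF targets), 12 to 17 and 2 to 2 (effector genes), and 2 to 3 and 4 to 6 (naive and memory genes). Genes that had not passed turned positive under CD8 marker scaling: Eomes (1.52), Rbbp4 (1.74), Bhlhe40 (1.11) and Klf2 (1.46). Eomes was also at 0.02 without ruxolitinib pool 1. The causes were not tested. No paired analysis was possible because the groups share no pool numbers. Hopxos rests on 7 counts with ruxolitinib, so its fold change there is imprecise.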

Other observations

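The deposited table labels 232 genes, Hopx among them, as the homeobox family of transcription factors, a class of developmental regulators to which HOPX belongs by its homeodomain. This set was chosen after the data were seen. Of these genes 144 had no count in any library and 30 were tested. Per kb of exon Hopx was the highest homeobox gene in controls (57.3 CPM per kb, against 30.9 for Cers2, a ceramide synthase gene that carries a homeodomain) and the fifth with ruxolitinib (8.80 CPM per kb). Hopx made up 10.4%, 15.7% and 17.4% of the homeobox CPM in control pools 4, 5 and 6 and 1.58%, 2.29% and 3.93% in ruxolitinib pools 1, 2 and 3, while the family's sum was 538, 558 and 672 CPM and 574, 502 and 495 CPM.

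Of the 30 tested homeobox genes, 6 were called lower, 13 higher and 11 neither (median log2 fold change 0.72), against 25.3% and 29.9% of all genes. Hopx is counted among the 6, but its values are a description, so its own call is not read as a test. Only Vax2 had a lower fold change than Hopx (-2.96 ± 0.54, and -3.60 without ruxolitinib pool 3). Cers5 fell by 1.495 ± 0.22 on the log2 scale, and was at 0.32 with CD8 marker scaling. Hhex, a gene of blood progenitors and B cells (2.76 ± 0.34), Hlx (2.33 ± 0.34) and Pbx2 (1.09 ± 0.21) rose and were, after Cers2, the most abundant per kb with ruxolitinib. The stem cell genes Meis1 and Hoxa9 had 1, 1 and 5 counts and 2, 0 and 0 counts in control pools 4, 5 and 6, and 28, 14 and 16 counts and 17, 16 and 12 counts in ruxolitinib pools 1, 2 and 3. The part of other marrow cells in these values was not tested.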
